A study of Mus musculus with 3 samples.

Results

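The kinases and adaptors that carry Toll-like receptor (TLR) and interleukin-1 receptor signals from the membrane were examined in chromatin-associated RNA of macrophages. The 10 genes were taken by symbol from 55536 annotated mouse genes, and their 65 annotated transcripts were taken with them. They were the kinase genes Irak4, Irak1, Irak2 and Irak3, the adaptor genes Myd88, Tirap, Ticam1 and Ticam2, and the inhibitor genes Tollip and Sigirr. The RNA came from the chromatin fraction of C57BL/6J macrophages grown from bone marrow. The cells had received 100 ng/ml lipid A for 12 h, were then left for 12 h after wash-out, and were given 100 ng/ml lipid A again for 30 min. Lipid A is the part of lipopolysaccharide that TLR4 detects. All 3 libraries belonged to this 1 group and were biological replicates under 1 donor identifier, so p-values over them measure the spread between these samples, which may be technical. Cells that had no lipid A, or had it a single time, were not analysed here, so none of the levels given is a response to it.

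In this pathway an activated receptor brings its intracellular TIR domain together with that of an adaptor. MyD88, joined to TLR2 and TLR4 by the sorting adaptor TIRAP, assembles the myddosome, in which IRAK4 binds MyD88 and recruits IRAK1 and IRAK2. These kinases pass the signal to the ubiquitin ligase TRAF6 and on to NF-kB and MAP kinases. From endosomes TLR4 signals through TRAM, the product of Ticam2, and TRIF, the product of Ticam1, toward interferon genes. IRAK3, also called IRAK-M, TOLLIP and SIGIRR are known as brakes on this signalling, and IRAK3 is known for its part in the muted response of macrophages to a repeated endotoxin exposure.

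The libraries held 12401783, 18317179 and 18164629 expected counts over annotated genes in replicates 1, 2 and 3. The RNA input was 1 µg, 250 ng and 500 ng in the same order, so input and replicate cannot be told apart. All 8 macrophage markers were above 1 TPM, at means of 36.3 to 423 TPM. Of 23 markers of lymphoid cells, granulocytes, dendritic cells or stromal cells, 15 had a nonzero TPM and were tested against 1 TPM. None of these passed (limma, with 1 at an unadjusted p under 0.05), and the highest of them had a mean of 1.59 TPM. TPM is a length-corrected level on a scale with the same sum in each library. In bulk RNA, fewer cells of a type and less RNA per cell cannot be told apart.

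The levels of the 10 genes spanned a wide range, from Irak2 at the top to Sigirr at the bottom. Each gene was tested one-sided against 1 TPM with limma on log2(TPM + 0.1), a scale that understates differences of low genes, with adjustment over all 24180 genes tested. Of the 10 genes, 9 were above 1 TPM at an adjusted p under 0.05, against 51.1% of all genes tested and 61.8% of the protein-coding ones. The median over the 10 was 16.7 TPM, against 2.02 TPM over all genes tested and 4.17 TPM over the protein-coding ones. All 4 kinase genes, all 4 adaptor genes and Tollip passed, and Sigirr did not.

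**Figure D1:**
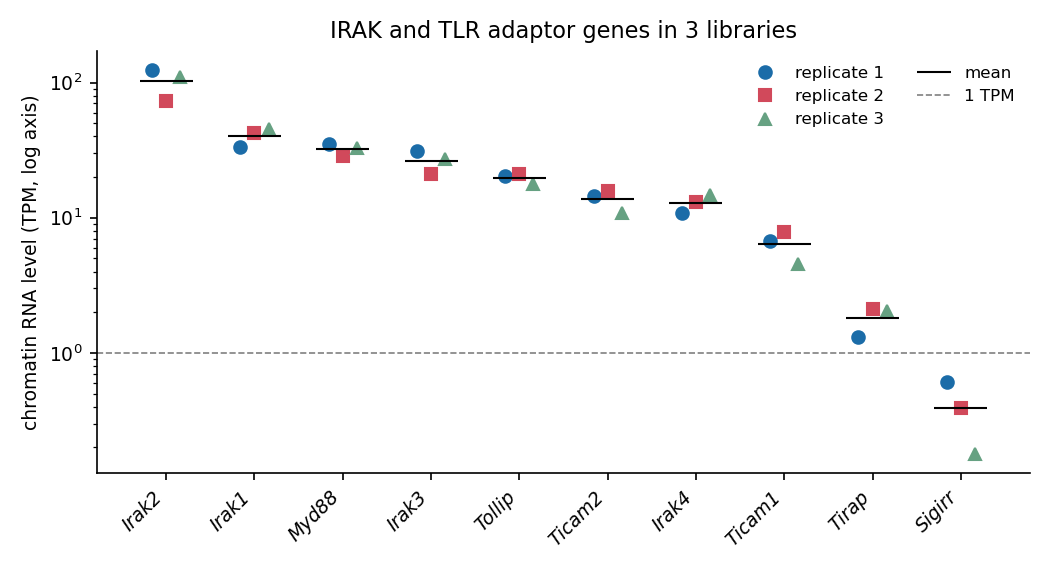
Chromatin RNA level of each of the 10 genes in TPM on a log axis, ordered by mean; points are the 3 libraries, black lines the means and the dashed line 1 TPM. Irak2 sits above every other gene in each library, Tirap just above the dashed line and Sigirr below it.

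Irak2 had the highest level of the 10, with 124, 73.6 and 109 TPM in replicates 1, 2 and 3. It encodes the IRAK family member that acts beside IRAK1 in the myddosome. The values of replicates 1 and 3 were close and replicate 2 was lower, yet its lowest TPM was above the highest TPM of any other gene in the set. The mean was 102 ± 25.9 TPM (SD, n = 3), at percentile 96.1 of the protein-coding genes tested and 6.51 above the floor of 1 TPM on the log2 scale (SE 0.21, limma adjusted p = 4.22e-05). Irak2 lies on the plus strand of mm10 chromosome 6 at 113638467 to 113695026. Within each library it exceeded Irak1, the next gene, by 1.88, 0.80 and 1.27 log2 units. The lead rests in part on short transcripts, since Irak2-206 and Irak2-208 together held 71.4, 40.0 and 57.6 TPM of Irak2. TMM-scaled CPM are counts scaled by library size and edgeR's TMM factor, without length correction. On this scale the log2 difference of Irak2 from Irak1 was 0.83, -0.16 and 0.34, with Irak2 the lower gene in replicate 2. With 3 libraries an exact sign-flip test cannot go below a two-sided p of 0.25, so neighbours in the order are described by their ranges.

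Irak1 encodes the kinase that IRAK4 recruits and activates in the myddosome. It had 33.5, 42.2 and 45.4 TPM in replicates 1, 2 and 3, lowest in replicate 1, and a mean of 40.4 ± 6.17 TPM (SD, n = 3). The gene is on the minus strand of mm10 chromosome X at 74013914 to 74023918. On the log2 scale Irak1 lay 5.19 above the floor of 1 TPM (SE 0.17, limma adjusted p = 4.17e-05). Irak4, the first kinase of the complex, was lower, with 10.9, 13.1 and 14.7 TPM and a mean of 12.9 ± 1.93 TPM (SD, n = 3). Every Irak4 value was below every Irak1 value. Irak4, on the plus strand of mm10 chromosome 15 at 94543643 to 94581815, passed the test 3.55 above the floor on the log2 scale (SE 0.16, limma adjusted p = 7.92e-05).

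Irak3, the inhibitory member of the family, lay between these kinases. It had 30.9, 21.1 and 27.1 TPM in replicates 1, 2 and 3, lowest in replicate 2, and a mean of 26.4 ± 4.96 TPM (SD, n = 3). Each Irak3 value was above each Irak4 value and below each Irak1 value. The gene is on the minus strand of mm10 chromosome 10 at 120141648 to 120202130 and stood at percentile 82.5 of the protein-coding genes tested. Its log2 level above 1 TPM was 4.57 (SE 0.18, limma adjusted p = 5.6e-05).

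Of the adaptor genes of the myddosome arm, Myd88 was abundant and Tirap was near the floor. Myd88 had 35.1, 28.6 and 32.7 TPM in replicates 1, 2 and 3 and a mean of 32.1 ± 3.30 TPM (SD, n = 3). Its range overlapped those of Irak1 and Irak3, its neighbours in the order. Irak1 exceeded Myd88 in 2 of 3 libraries, and Myd88 exceeded Irak3 in 3 of 3. Myd88 is on the minus strand of mm10 chromosome 9 at 119335934 to 119341411 and lay 4.87 above the floor on the log2 scale (SE 0.15, limma adjusted p = 4.05e-05).

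Tirap had 1.31, 2.13 and 2.03 TPM, with 52.8, 121 and 109 expected counts in replicates 1, 2 and 3. All 3 values were above 1 TPM, and replicate 1 was the lowest. The mean was 1.82 ± 0.447 TPM (SD, n = 3), 0.78 above the floor on the log2 scale (SE 0.20, limma adjusted p = 0.0197). Without replicate 2 the limma adjusted p was 0.0816 and without replicate 3 it was 0.0934, and over all alternatives it ran from 7.17e-05 in the second transcript table to 1 with a floor of 5 TPM. The posterior bounds deposited beside the replicate 1 value ran from 1.35 to 3.60 TPM and left the value itself just outside. Tirap is on the minus strand of mm10 chromosome 9 at 35184551 to 35200291.

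Of the adaptor genes of the TRIF arm, Ticam2 was higher than Ticam1. Ticam2, the bridging adaptor, had 14.4, 15.8 and 10.8 TPM in replicates 1, 2 and 3 and a mean of 13.7 ± 2.59 TPM (SD, n = 3). Its range overlapped that of Irak4, which it exceeded in 2 of 3 libraries. Ticam1, whose product TRIF binds TRAF3 and RIPK1, had 6.71, 7.88 and 4.53 TPM and a mean of 6.37 ± 1.70 TPM (SD, n = 3). Both genes were lowest in replicate 3, and no Ticam1 value reached the lowest Ticam2 value. Ticam1, on the minus strand of mm10 chromosome 17 at 56269319 to 56276786, lay 2.52 above the floor on the log2 scale (SE 0.22, limma adjusted p = 0.000478). Ticam2, on chromosome 18, lay 3.63 above it (SE 0.18, limma adjusted p = 9.61e-05). Part of Ticam2, 14299 bases, is shared on the same strand with Tmed7, a gene with 5.05 ± 0.739 TPM (SD, n = 3), so the split of reads between these genes is uncertain.

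The inhibitor genes Tollip and Sigirr lay far apart. Tollip, whose product binds IRAK1 and holds it inactive, had 20.2, 20.9 and 17.8 TPM in replicates 1, 2 and 3. Its mean was 19.7 ± 1.64 TPM (SD, n = 3), and its coefficient of variation over libraries, 8.33%, was the smallest of the 10. Tollip, on the minus strand of mm10 chromosome 7 at 141874813 to 141918507, lay 4.16 above the floor on the log2 scale (SE 0.15, limma adjusted p = 4.63e-05). Sigirr, a single-immunoglobulin-domain receptor gene on the minus strand of mm10 chromosome 7 at 141091175 to 141100572, had 0.61, 0.39 and 0.18 TPM. These rest on 4, 6 and 4 expected counts, and the deposited posterior bounds, whose level the headers do not state, ran from 0.56 to 3.36, from 0.513 to 2.67 and from 0.383 to 2.33 TPM. The values of replicates 2 and 3 lay below their own bounds. Its mean of 0.393 ± 0.215 TPM (SD, n = 3) was not above 1 TPM (log2 -1.26, SE 0.31, limma adjusted p = 1). The bounds of all 3 libraries hold 1 TPM, so a level of that size could not be told apart at this depth. With levels rescaled over protein-coding genes alone, which raised all genes by a median of 1.61 log2 units, Sigirr stood at 0.15 log2 units and still did not pass (limma adjusted p = 0.52, the lowest over all alternatives).

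Read down the order, the ranges over libraries did not overlap between Irak2 and Irak1, Irak3 and Tollip, Tollip and Ticam2, Irak4 and Ticam1, Ticam1 and Tirap, or Tirap and Sigirr. The gap between Irak3 and Tollip was small, since in replicate 2 they differed by 0.01 log2 units. Irak1, Myd88 and Irak3 formed a run in which each range overlapped the next, and Ticam2 and Irak4 formed another.

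The genes differed in how far they moved between libraries. The spread was expressed as the biological coefficient of variation (BCV), the relative spread between libraries beyond counting noise, estimated with edgeR. Over the 9 genes with enough counts, all but Sigirr, the median BCV was 0.176, against 0.210 over 14140 genes. Tollip had the lowest at 0.160 and Tirap the highest at 0.233. Irak2, with 0.220, and Ticam1, with 0.227, also lay above the median of all genes.

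No single library was the low one for the set. On TMM-scaled CPM, each of the 3 libraries was the lowest for 3 of the 9 genes. Over 14140 genes, replicates 1, 2 and 3 were the lowest for 38.0%, 34.9% and 27.1% on that scale. Relative to the mean of the other 2 libraries, on TMM-scaled log2 CPM, replicate 2 was lower for Irak2, at -0.75, for Irak3, at -0.36, and for Myd88, at -0.35. It was higher for Ticam1, at 0.43, for Tirap, at 0.26, and for Ticam2, at 0.20. Irak1 and Tollip, at -0.01 each, had hardly any offset in that library. Replicate 3 was the low library of Ticam1, at -0.71, Ticam2, at -0.36, and Tollip, at -0.15, while replicate 1 was that of Tirap, at -0.51, Irak4, at -0.29, and Irak1, at -0.25. Replicate 1 was the high library of Irak2, at 0.49, and Myd88, at 0.35. The RNA input differed between the libraries, and its part in these offsets was not tested. Of the 36 other pathway genes above 1 TPM, replicates 1, 2 and 3 were the lowest by TPM for 5, 15 and 16. Shares over all genes were not computed by TPM, so this count has no background on its own scale.

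**Figure D2:**
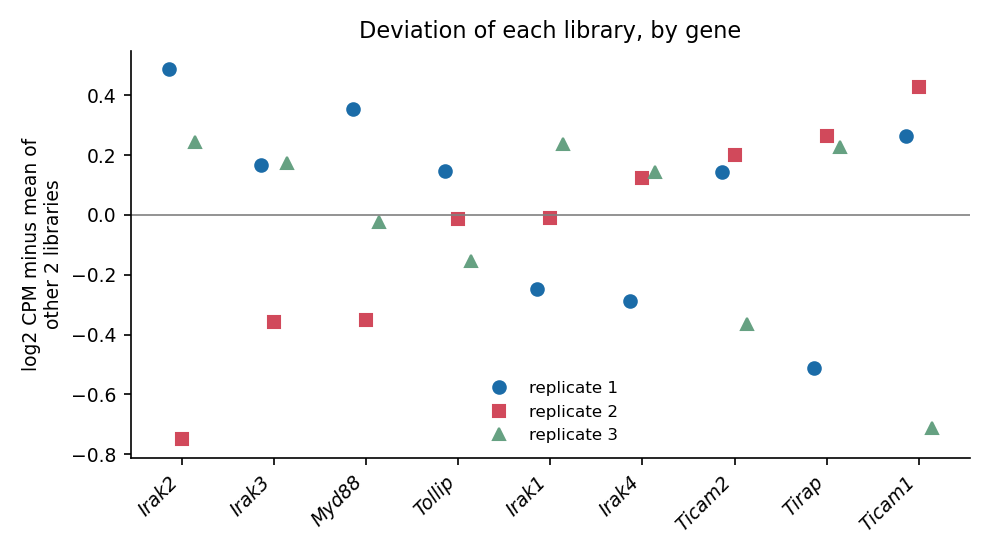
Offset of each library from the mean of the other 2 libraries, on log2 CPM, for the 9 genes with enough counts, ordered by the offset of replicate 2. The median offset of protein-coding genes with enough counts in the same library was subtracted. Irak2, Irak3 and Myd88 lie below 0 in replicate 2, and Ticam2, Tirap and Ticam1 above 0.

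The promoters of the 3 genes that were lowest in replicate 2 are shown as an example of genes with the same low library, which include the highest gene of the set. Each sequence runs from 250 bases before to 50 bases after a start in RefSeq (GRCm38.p6), where 8 of the 10 genes were matched with 11 starts. Capitals mark a match to GAAANNGAA, the core of the interferon-stimulated response element (ISRE) that interferon regulatory factors bind.
Irak2 promoter, chr6:113638217-113638516, plus strand: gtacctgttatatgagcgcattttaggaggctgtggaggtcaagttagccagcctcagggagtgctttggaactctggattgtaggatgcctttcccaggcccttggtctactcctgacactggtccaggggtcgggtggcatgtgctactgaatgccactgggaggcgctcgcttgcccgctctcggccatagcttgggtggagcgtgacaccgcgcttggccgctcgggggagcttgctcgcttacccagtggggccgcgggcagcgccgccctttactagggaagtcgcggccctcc
Irak3 promoter, chr10:120202081-120202380, minus strand: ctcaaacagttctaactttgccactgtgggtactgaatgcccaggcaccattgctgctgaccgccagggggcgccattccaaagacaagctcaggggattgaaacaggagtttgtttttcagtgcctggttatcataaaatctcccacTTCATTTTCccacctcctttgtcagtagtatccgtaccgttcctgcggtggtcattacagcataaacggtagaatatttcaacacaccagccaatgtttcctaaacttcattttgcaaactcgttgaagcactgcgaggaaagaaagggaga
Myd88 promoter, chr9:119339969-119340268, minus strand: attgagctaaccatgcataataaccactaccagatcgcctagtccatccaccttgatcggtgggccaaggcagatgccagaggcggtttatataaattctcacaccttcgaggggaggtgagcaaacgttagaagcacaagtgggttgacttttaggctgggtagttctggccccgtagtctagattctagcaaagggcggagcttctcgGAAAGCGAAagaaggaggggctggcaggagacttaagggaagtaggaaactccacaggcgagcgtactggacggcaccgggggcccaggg
The Myd88 match, GAAAGCGAA, began at position -40 counted with the start as 0. The Irak3 match lay on the opposite strand at -102, and the second Irak3 start had no match. No Irak2 match was found. Searched on both strands, this motif was present in 2 of the 11 starts and in 8.56% of 32851 promoters of the same length. The kappaB-type letters GGGNNTTCC were in 0 of the 11 and in 5.82% of all promoters. Only this spacing of GGG and TTCC was searched, so kappaB-type sites with another spacing would be missed. The cAMP response element letters TGACGTCA were in 0 of the 11 and in 1.79% of all. The 11 starts held a median of 22 CpG dinucleotides, against 7 over all promoters.

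The annotated transcripts that took the counts differed between the genes. The shares that follow are of expected counts in the first transcript table, in which a longer transcript collects more counts at the same level. Myd88-203, typed as retaining an intron, took 69.1%, 58.8% and 54.8% of the expected counts in replicates 1, 2 and 3, and the coding transcript Myd88-201 took 30.9%, 41.2% and 45.2%. The mean share of Myd88-203 was 60.9 ± 7.35% (SD, n = 3), and it was 58.4 ± 4.35% in the second transcript table. Per length the forms were closer, with 22.29, 14.99 and 15.83 TPM for Myd88-203 and 12.84, 13.59 and 16.83 TPM for Myd88-201 in replicates 1, 2 and 3. Myd88-203 was thus the higher in replicates 1 and 2 and the lower in replicate 3, and the second table gave the same order in each library. Over all protein-coding genes, transcripts of this type took 27.7%, 24.9% and 24.2% of expected counts. That share is pooled over their summed counts and includes genes without such a transcript, so it is not the share of a typical gene. Myd88-203 holds introns 2 and 3 of Myd88-201 whole, 389 and 160 bases long, so 549 of its 2458 bases are intronic. The ends of both introns are shown because reads across or between them separate the spliced from the unspliced form, with the first and last bases of each intron in capitals.
Myd88 intron 2 start, chr9:119338556-119338585, minus strand: gaccccctagGTaagggcccagtactgtgc
Myd88 intron 2 end, chr9:119338177-119338206, minus strand: cccttgtcccctgtcctcAGgacaaacgcc
Myd88 intron 3 start, chr9:119337986-119338015, minus strand: ttgagaaaagGTtggttaaacatctaagag
Myd88 intron 3 end, chr9:119337836-119337865, minus strand: gcagtgccactctccctcAGgtgtcgccgc
All 4 ends carry the usual GT and AG. Whether the unspliced form is a stable RNA or a transcript still being made cannot be read from these counts. Acaa1a overlaps 1736 bases of Myd88 on the opposite strand, at 57.2 ± 8.88 TPM (SD, n = 3), and whether the counting used strand is not given in the sources used here.

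As shares of counts, transcripts typed as retaining an intron took less of each other gene than of Myd88. In Irak2 it was 36.9%, 32.4% and 40.1%, with Irak2-204, which holds 421 bases of the 4352-base intron 3, taking 22.3 ± 2.94% (SD, n = 3). The coding transcript Irak2-201 took 42.8 ± 4.13%. Ticam2-202 took 37.8%, 35.1% and 24.7% of Ticam2, lowest in replicate 3, with 1588 of its 2010 bases in intron 2. Irak3-204 took 23.7 ± 2.48% of Irak3 and Irak3-201 63.6 ± 9.41% (SD, n = 3). The share of the type was 19.8 ± 5.26% in Irak1, 16.5 ± 3.96% in Irak4 and 15.8 ± 2.59% in Tollip (SD, n = 3 each). Tollip-201 took 80.9 ± 2.26% of Tollip, and Irak4-202 and Irak4-201 took 54.9 ± 6.28% and 28.5 ± 2.34% of Irak4. The second table turned the Irak4 order round, with 34.3 ± 5.31% for Irak4-202 and 48.8 ± 5.55% for Irak4-201, and gave Irak3-201 37.1 ± 11.0% (SD, n = 3 each). Ticam1 has 1 annotated transcript, and all 7 of Tirap are coding, led by Tirap-201 with 83.0 ± 3.94%. Sigirr had too few counts for a share.

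As shares of TPM, which correct for the shorter length of most of these transcripts, the genes lay closer together. The retained-intron type then took 54.8 ± 7.76% of Myd88, 51.6 ± 8.12% of Ticam2, 50.6 ± 4.74% of Irak2 and 50.3 ± 3.98% of Irak1 (SD, n = 3 each). In replicate 3 its share was 56.1% in Irak2 and 48.5% in Myd88, so the order of these genes turned there. It took 40.0 ± 2.17% of Irak3, 38.7 ± 6.57% of Irak4 and 35.2 ± 4.64% of Tollip (SD, n = 3 each). The second table put Ticam2 first on this scale, at 59.2 ± 5.32%, and Myd88 at 52.3 ± 4.50%. The share of TPM over all protein-coding genes was not computed, and the share of counts given for them above is a different measure.

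**Figure D3:**
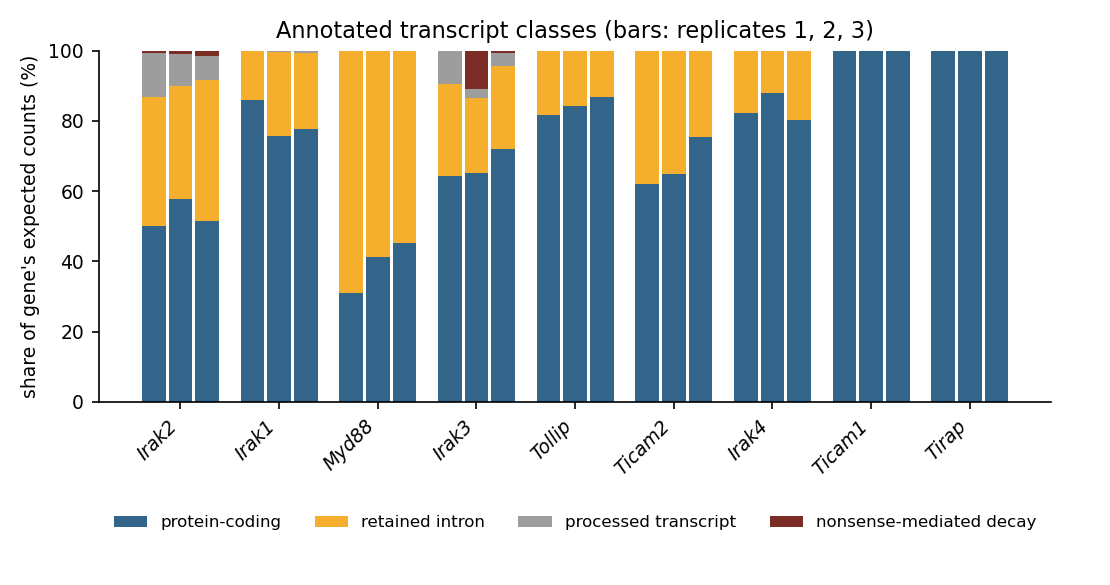
Share of each gene's expected counts, not corrected for length, in annotated transcript classes, in percent, as stacked bars for replicates 1, 2 and 3 of the 9 genes with enough counts. The retained-intron class fills most of each Myd88 bar and is not annotated for Ticam1 and Tirap.

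In Irak1 the counts moved between a pair of coding transcripts from library to library. Irak1-206 had 245, 501 and 812 expected counts in replicates 1, 2 and 3, and Irak1-204 had 347, 433 and 164. Of the sum of both, Irak1-206 took 41.4%, 53.7% and 83.2%, lowest in replicate 1 and highest in replicate 3. The second transcript table, made from the same libraries, gave 36.3%, 54.2% and 81.8%. Their coding parts differ by 3 bases at the start of exon 5, where a pair of AG acceptors stand next to each other, and their ends differ by 3 and 4 bases. The joins of exon 4 and exon 5 are shown because they are where the coding parts differ, with the extra bases of Irak1-206 in capitals.
Irak1-206 join: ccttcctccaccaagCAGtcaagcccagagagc
Irak1-204 join: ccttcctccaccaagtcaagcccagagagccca
The genomic end of intron 4, from a transcript that keeps this intron, has the pair of acceptors in capitals.
Irak1 intron 4 end, chrX:74022653-74022688, minus strand: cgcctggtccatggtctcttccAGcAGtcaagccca
The transcripts are 3835 and 3825 bases long, so the split rests on the reads over very few bases. How many reads covered them is not in the tables, and no interval can be given for these shares.

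**Figure D4:**
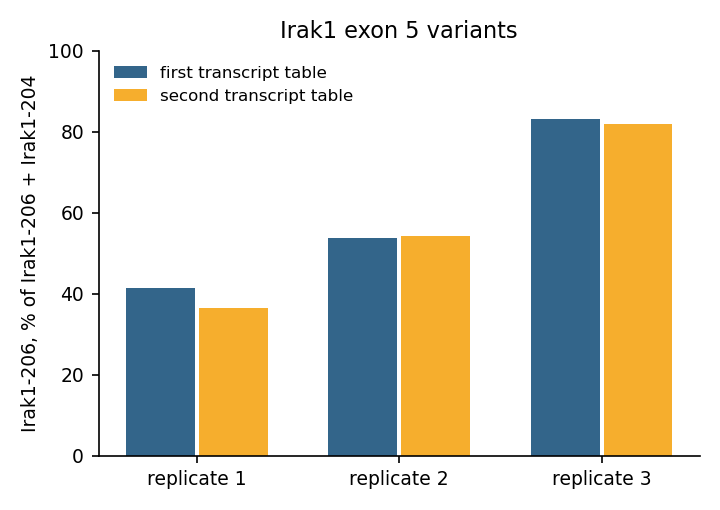
Share of Irak1-206 in the sum of Irak1-206 and Irak1-204, in percent, for each library in both transcript tables. Bars of the same library lie close together, and replicate 3 has the highest share in both tables.

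Each library was also quantified in a second transcript table, and the levels of 4 of these genes were close in both. The log2 ratio of the second table, summed per gene, to the gene table had a median of 0.10 over the 9 genes, against 0.38 over 11245 protein-coding genes. Myd88 (-0.08 ± 0.05), Tollip (0.10 ± 0.06), Irak1 (-0.14 ± 0.11) and Ticam2 (-0.16 ± 0.02) were near 0 on this log2 scale, and Irak3 (0.36 ± 0.11) and Irak4 (0.46 ± 0.18) were near the median of protein-coding genes (SD, n = 3 libraries each). Ticam1 was lower in the second table, at -0.44 ± 0.02.

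Tirap and Irak2 were the genes whose level rested most on the table. Tirap had 8.17, 8.56 and 7.39 TPM in the second table, 4.50-fold above the gene table in the geometric mean, and its estimated counts there were 545, 872 and 745. That log2 ratio of 2.17 ± 0.41 (SD, n = 3) stood at percentile 95.2 of protein-coding genes. In this table Tirap, with a mean of 8.04 TPM, came above Ticam1, with 4.69 TPM. Irak2 had 300, 160 and 267 TPM in the second table, a mean of 242 ± 73.3 TPM (SD, n = 3), which was 2.34-fold above the gene table in the geometric mean. Replicate 2 was again the lowest for Irak2. Irak2-201 took 20.3 ± 2.13% of its counts there, and the retained-intron type 51.1 ± 1.73%. The antisense gene Gm43964, inside Irak2 on the opposite strand, had 15, 16 and 8 expected counts in the gene table and 331, 403 and 419 estimated counts in the second. Gm43963, also opposite, had 27.3 ± 13.9 TPM, and Gm43912, on the same strand, 20.2 ± 6.63 TPM (SD, n = 3 each). The part of these overlapping genes in the Irak2 level was not tested.

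**Figure D5:**
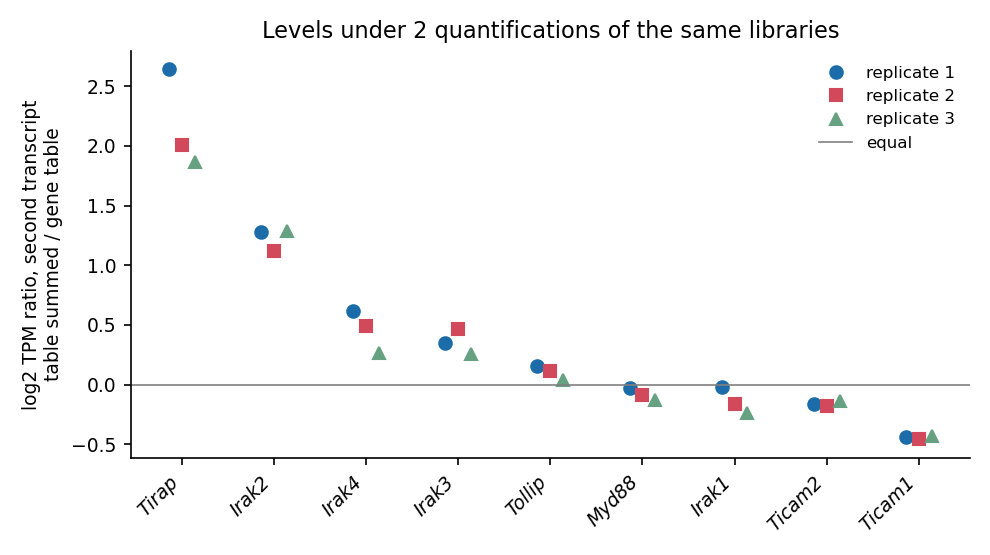
Log2 ratio of the level in the second transcript table, summed per gene, to that in the gene table, for 9 genes and 3 libraries. Tirap and Irak2 lie above the other genes in all 3 libraries, and Ticam1 lies below 0.

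Further genes overlap the set. Tmbim4 shares 541 bases with Irak3 on the opposite strand and had 62.3 ± 9.65 TPM, and the antisense gene Gm47009 had 5.66 ± 0.17 TPM. Twf1 overlaps Irak4 on the opposite strand and had 18.8 ± 3.00 TPM. Srpr overlaps 117 bases of Tirap and had 18.2 ± 1.37 TPM, while Gm39318, antisense within Tirap, had 0.28 ± 0.04 TPM (SD, n = 3 each). Slc22a14, whose span holds Myd88 on the same strand, had 0 counts in both tables, as did the microRNA genes Mir5132, within Irak1, and Mir718, which shares 70 bases with the start of Irak1.

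The genes closest to Irak2 and Myd88 in level over the 3 libraries were found among 12992 protein-coding genes by Euclidean distance in log2(TPM + 0.1). The 3 closest to Irak2 were Gramd1b, Zfand5 and Pcf11, at distances of 0.03, 0.17 and 0.19. Gramd1b, a cholesterol transfer protein gene, had 124, 74.8 and 109 TPM in replicates 1, 2 and 3. The 3 closest to Myd88 were Stk40, Mtrex and Syne1, at distances of 0.02, 0.06 and 0.06. Stk40, a kinase-like gene, had 34.7, 28.7 and 32.5 TPM. With 3 libraries such closeness is mostly a likeness of level.

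Around these 10 genes, 36 of 47 other genes of the pathway, or 76.6%, were above 1 TPM by the same test, against 51.1% of all genes tested and 61.8% of the protein-coding ones. Of the 47, 46 had a nonzero TPM and were tested, and the median over the 47 was 17.8 TPM. Of 20 receptors and their partners, 12 passed, or 60.0%, close to the share of protein-coding genes. Unc93b1, the chaperone of endosomal TLRs, was the highest at 309 ± 25.5 TPM (SD, n = 3), and the interleukin-18 receptor gene Il18r1 was the lowest, with 0 expected counts in each library of the gene table. The second transcript table of the same libraries gave Il18r1 348, 514 and 718 estimated counts and 6.12, 5.52 and 8.50 TPM, so its level rests on the table. Of 3 further adaptors, Pik3ap1, which encodes BCAP, passed at 296 ± 16.1 TPM, and Sarm1, the lowest, had 0.08 TPM. Downstream of the IRAK kinases, 17 of 18 ubiquitin ligase and kinase genes passed. Ikbke, a kinase gene of the TRIF arm, was the highest at 1154 ± 100 TPM (SD, n = 3), and Peli3, of the Pellino ligases that act on IRAK1, had 1.15 TPM and did not pass (limma adjusted p = 0.536). All 6 transcription factor genes passed, from 30.0 TPM for Rela to 367 TPM for Irf7. By mean TPM, 7 of the 47 genes lay above Irak2, the highest of the 10 genes examined.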

How the data were processed

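Ribosomal RNA-depleted total RNA-seq of the chromatin fraction gave 3 libraries of 1 group, per the labels. Per the file headers, the authors' gene tables and first transcript tables hold expected counts with TPM, in RSEM's layout, and their second transcript tables hold estimated counts with TPM, in kallisto's layout. Build mm10 and annotation M21 are given in the deposited text files; the sources used here do not give the aligner, tool versions or use of strand. Rows naming no gene took 0.401% to 1.04% of counts and were left out.

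Levels were tested with limma 3.58.1 in R 4.3.3, as an intercept-only one-sided fit of log2(TPM + 0.1) against 1 TPM adjusted by Benjamini-Hochberg (threshold 0.05), and the script was tested on simulated data. BCV came from edgeR 4.0.16 on rounded expected counts after TMM scaling and filterByExpr, and DESeq2 1.42.0 gave alternative size factors. A count of 0 allows 3 counts, which is 0.164 to 0.242 CPM; this limit covers counting error alone. Pairs of libraries differed beyond sampling noise (chi-square over its degrees of freedom 40.2 to 76.0). Outside the 10 genes, those named were the highest and lowest of each pathway group and any that missed the test (by count only above 10 of them), the 3 nearest genes to Irak2 and Myd88, overlapping genes, and transcripts with at least 20% of a gene's counts or the most counts. The members, lists and rules were chosen with earlier results of these data known. Python 3.11.15, numpy 2.4.6, pandas 2.3.3 and matplotlib 3.10.9 were used.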

Additional observations from a re-analysis of the deposited data

How the results depend on the processing

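Of 99 comparisons of a single gene's level with the alternatives, 94 kept direction and side of the threshold. With a floor of 5 TPM, Tirap turned to -1.44 log2 units from the floor. Ticam1, at 0.31, no longer passed with that floor (limma adjusted p = 0.346, the highest over its alternatives, which began at 4.02e-05). Of the 10 genes, 7 passed there, against 7051 of the 24180 genes tested. With levels rescaled over protein-coding genes, Sigirr turned to 0.15. Tirap lost its call without replicate 2 (0.66 log2 units) and without replicate 3 (0.69). Leaving out each library in turn, 8 to 9 of the 10 genes passed. Over all genes, 11900 of 23304 tested passed without replicate 1, 11961 of 22992 without replicate 2 and 11908 of 23172 without replicate 3. The median BCV of the set was then 0.153 to 0.216, and 8 to 10 genes kept their rank, Ticam2 and Irak4 changing places. Of the 10 genes, 4 kept their rank in the second transcript table, with a Spearman rho of 0.96 between the levels of the 10 as a description. The median retained-intron share of counts over the 7 genes with such a transcript and enough counts was 31.1% there, against 23.7% in the first table. Pooled over all protein-coding genes, with or without such a transcript, the second table gave 26.9%, 25.2% and 24.8% in replicates 1, 2 and 3. The first table gave 27.7%, 24.9% and 24.2%. As a share of TPM, an alternative chosen after seeing the data, the median over the 7 genes was 50.3% in the first table, since the transcripts of this type are mostly shorter. The count of all genes above the floor was 19775 in the second table, where 34376 genes were tested. For the differing tables, the cause was not tested. No paired analysis was possible because there is 1 group. Depth limits Sigirr, with 4 to 6 expected counts per library. The Irak1 transcript split rests on very few bases, and the number of reads over them is not known.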
